A study of Mus musculus with 6 samples.

Results

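Ependymal nuclei, from the multiciliated cells that line the brain ventricles, were picked out of a single-nucleus RNA sequencing study of the mouse striatum by their own expression values. A nucleus was taken when its deposited values of Spag17, Dnah12 and Cfap43 summed to 6 or more, Ttr was below 20, Rgs9 and Pde10a together were at most 5, Slc17a7 was at most 1, and Mog and Mag together were at most 1. The exclusions are aimed at choroid plexus (Ttr), medium spiny neurons (Rgs9, Pde10a), glutamatergic neurons (Slc17a7) and oligodendrocytes (Mog, Mag). The rule kept 115 of 48834 nuclei. A further 49 nuclei with a marker sum of 6 or more were removed by the exclusions, 24 of them over the Rgs9 and Pde10a limit and 19 over the Mog and Mag limit.

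Striatum had been dissected and snap-frozen from 3 Celsr3 heterozygous animals and 3 wild-type controls, and each sample gave 1 droplet library (10x Genomics, 3′ chemistry, version 3.1). All 6 libraries shared 1 sequencing lane. Strain, age, sex and the Celsr3 allele are not stated in the labels used here. Celsr3 encodes an adhesion receptor of the cadherin family that takes part in planar cell polarity and axon guidance. The labels call the samples biological replicates of a genotype, and the library was the unit of replication throughout. Deposited values are whole numbers per gene and nucleus that behave as depth-corrected scores, how they were made is not given in the sources used here, and a level below is the mean value per nucleus.

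Ependymal cells carry tufts of motile cilia whose beat moves cerebrospinal fluid along the ventricle wall. The ciliary shaft, the axoneme, is a ring of microtubule doublets around a central pair: dynein arms on the doublets generate sliding, radial spokes and the central pair regulate it, nexin links hold the doublets together, and inner proteins stiffen them. Intraflagellar transport builds the cilium. FOXJ1 and the RFX factors switch on the genes of motile cilia, and planar cell polarity proteins orient the basal bodies so that the cilia of a cell beat in the same direction.

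Sequences upstream of leading and of axonemal genes are shown first, because RFX and forkhead factors are the regulators named above. RefSeq promoters (GRCm38.p6, 250 bases before to 50 after a start) matched 79 of the 100 leading genes, defined below, and 86 of the 106 axonemal genes in the table. The full RFX X-box, an inverted repeat of 14 bases, was found, on either strand, in promoters of 3 of the 79 leading genes (3.8%) and 2 of the 86 axonemal genes (2.33%), against 0.628% of all 16715 genes matched. The shorter RFX motif GTTGCC, which can lie within an X-box, was found in 26 of the 79 leading genes (32.9%) and 38 of the 86 axonemal genes (44.2%), against 14.8% of all genes. Among the 20 genes that lead the ranking it was in 3 of 15 matched (20%). Of 23 intraflagellar transport genes matched, 11 (47.8%) held GTTGCC and none held the X-box or the forkhead motif given next (0.0% each). The forkhead motif TGTTTAC was found in 8.86% of the leading, 4.65% of the axonemal and 3.45% of all genes. A match is a description of letters, not of a bound site. The windows of 100 bases below lie upstream of the start and overlap no annotated exon. The capitals mark the RFX X-box in Iqca and Ccdc151, and GTTGCC or its reverse complement GGCAAC in the other genes; Spag16 and Tekt1 were chosen because they hold the motif in both orientations. Ccdc151 and Tekt1 are axonemal genes outside the 100 leading genes. Each window is written 5′ to 3′ on the gene's strand.
Iqca (chr1:90153480-90153579, minus strand): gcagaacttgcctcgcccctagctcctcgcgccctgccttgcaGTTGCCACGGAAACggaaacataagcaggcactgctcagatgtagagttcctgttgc
Ccdc151 (chr9:22002635-22002734, minus strand): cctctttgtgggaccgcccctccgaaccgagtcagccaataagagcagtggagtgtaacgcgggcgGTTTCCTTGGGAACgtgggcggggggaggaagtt
Ccdc180 (chr4:45890203-45890302, plus strand): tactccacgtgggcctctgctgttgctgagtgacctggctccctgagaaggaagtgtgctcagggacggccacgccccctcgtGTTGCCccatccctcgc
Ccdc170 (chr10:4482394-4482493, plus strand): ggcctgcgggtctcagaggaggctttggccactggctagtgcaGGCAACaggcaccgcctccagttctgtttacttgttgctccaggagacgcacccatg
Ccdc153 (chr9:44240482-44240581, plus strand): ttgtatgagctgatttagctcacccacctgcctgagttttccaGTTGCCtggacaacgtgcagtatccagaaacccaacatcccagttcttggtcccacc
Spag16 (chr1:69826824-69826923, plus strand): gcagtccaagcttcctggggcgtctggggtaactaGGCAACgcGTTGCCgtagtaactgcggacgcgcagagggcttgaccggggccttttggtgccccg
Tekt1 (chr11:72361883-72361982, minus strand): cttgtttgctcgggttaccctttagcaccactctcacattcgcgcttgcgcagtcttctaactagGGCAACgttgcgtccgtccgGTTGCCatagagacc
In Spag16, which codes for a central pair protein, the inverted copies lie close together, and in Tekt1, which codes for a tektin of the doublet lumen, they lie a little further apart.

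The label held up against markers outside the rule. Of 7 further ependymal markers (Foxj1, Tmem212, Ccdc153, Hydin, Cfap54, Dnah6, Rarres2), 50 nuclei had a value above 0 for all 7, and 110 of 115 for at least 3. The other 5 nuclei, 4 in heterozygous replicate 2 and 1 in heterozygous replicate 3, had Tmem212 at 0, a mean Slc1a2 of 14, Lsamp of 30.8 and Rgs20 of 7.4, against 10.4, 4.71, 7.02 and 1.27 in the other 110. The share, the genes described singly from the smallest p values, the test against astrocyte nuclei and the axonemal counts are also given without these 5 nuclei. The marker sum ranged from 6 to 101 with a median of 26. At the threshold, 4 nuclei had a sum of 6, with a mean Tmem212 of 1.75 and Slc1a2 of 13.5, and the 2 nuclei just outside it, at a sum of 5, had a Tmem212 of 0 and a Slc1a2 of 15. Tanycyte markers, of the related cells that line the third ventricle, summed to 1.83 ± 0.739 (SD, n = 6 libraries) over 12 genes, against 1.64 in all other and 1.35 in astrocyte nuclei. Of the 12, 5 were lower than in other nuclei, Rax and Frzb being at 0 in every ependymal nucleus, while Scn7a, a sodium channel, averaged 0.497 against 0.0165, and none was above 0 in 50% of ependymal nuclei. Of the barcodes, 274 occurred in more than 1 library. In all, 3 ependymal nuclei carried such a barcode, and no 2 ependymal nuclei shared one.

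Genes were ranked by the ratio of their mean in ependymal nuclei to that in all other nuclei, among 1177 genes with a mean of at least 1 and a value above 0 in at least 50% of ependymal nuclei of each genotype. Because the nuclei were chosen by their own values, these ratios describe the population and were not tested. The rule gene Dnah12, an inner-arm dynein heavy chain (chr14:26693274-26891703), averaged 18.2 ± 3.09 (SD, n = 6 libraries) and was above 0 in every ependymal nucleus, against 0.0236 in all other nuclei. Spag17, a central pair protein (chr3:99885406-100143322), averaged 6.9 ± 1.5. Cfap43, an axonemal protein of motile cilia and flagella (chr19:47736857-47919287), averaged 5.0 ± 0.612. Coordinates are of GRCm38, from GENCODE M21.

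The 20 leading genes had ratios from 381 for Wdr63, of an inner dynein arm (chr3:146040526-146108130), to 864.5 for Dthd1 (chr5:62813823-62888308), a death-domain gene. Dnah12 and Spag17, which the rule used, are among them, and Tmem212 (chr3:27866066-27896368), a standard ependymal marker, a ratio of 575. Only 3 of the 20 are in the 9 cilium gene lists, whereas 41 of the leading 100 are. The rest of the 20 include Ccdc180, Wdr49, Lrrc36, Ttc29, Frmpd2 and Crocc2, the last coding for a rootletin-like protein, as well as the non-coding or antisense transcripts Gm47888, Gm10714, 2010001K21Rik and C230072F16Rik. Tmem212 was read at 12.8, 10.5 and 10.1 in wild type and at 11.8, 6.97 and 10.5 in heterozygous libraries. Heterozygous replicate 2 was the lowest, and the genotypes overlapped.

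**Figure D1:**
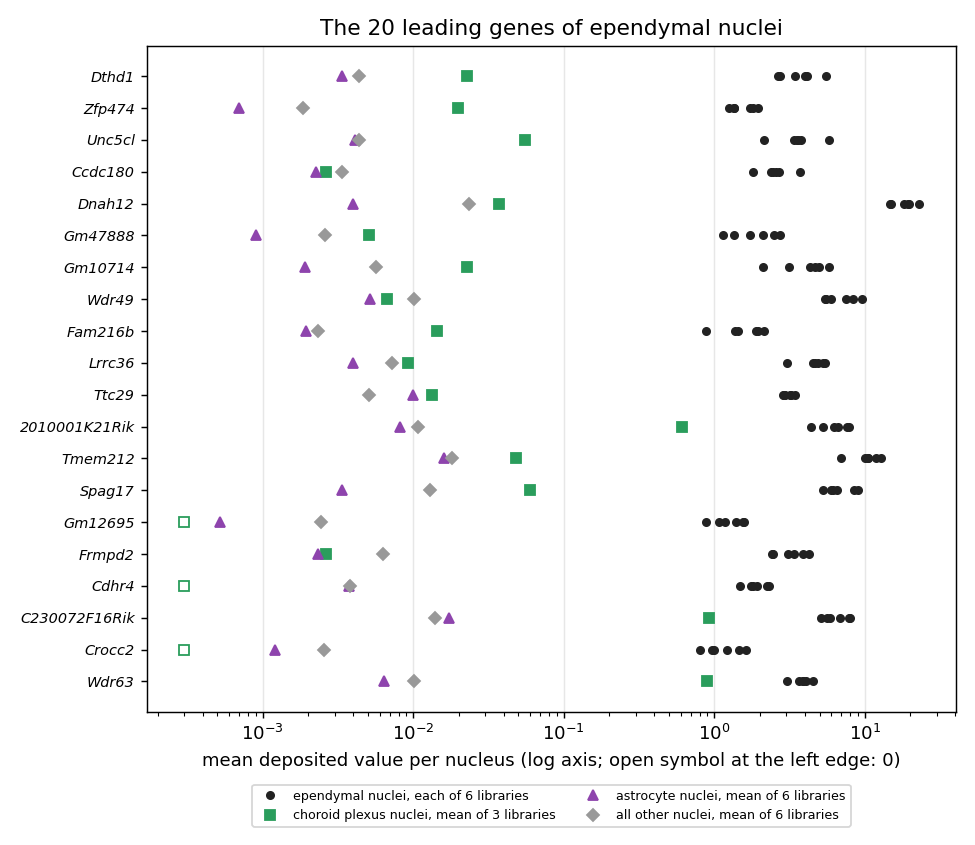
Mean deposited value per nucleus (log axis) of the 20 leading genes in ependymal nuclei (black, each of 6 libraries), choroid plexus nuclei (green, mean of the 3 libraries with at least 50 such nuclei), astrocyte nuclei (purple, mean of 6 libraries) and all other nuclei (grey, mean of 6 libraries). Every black point lies to the right of every other symbol of its gene, and 2010001K21Rik, C230072F16Rik and Wdr63 are the genes with choroid plexus means of 0.612 to 0.918.

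The axoneme was represented in nearly all its parts. Of 106 axonemal genes in the table (6 lists), 89 had a mean at least 10 times that in other nuclei and 69 were above 0 in at least 50% of ependymal nuclei. The 106 include Dnah12, Spag17 and Cfap43, by which the nuclei were chosen. Among dynein arm genes, 17 of 21 were at least 10 times higher. Dnah6, an inner-arm heavy chain, averaged 8.1 ± 1.54 (SD, n = 6 libraries), Dnah9 and Dnah11, outer-arm heavy chains, 7.83 ± 1.36 and 6.7 ± 1.38, and Dnah5, the other outer-arm heavy chain, 5.49 ± 0.868. Armc4, which helps dock the outer arms, averaged 3.76 ± 0.778 and led the assembly and docking list, of which 10 of 14 genes were at least 10 times higher. Radial spoke genes passed that fold in 15 of 19 cases, led by Ak7 (6.01 ± 0.862) and Cfap61 (5.41 ± 0.817). All 16 central pair genes passed it, among them Spag16 (15.9 ± 3.67), Cfap54 (9.94 ± 1.91) and Hydin (6.86 ± 1.19). Nexin link and ruler genes passed in 11 of 12 cases and inner protein genes in 20 of 24.

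Genes that ciliated and non-ciliated cells share stood out less. Only 3 of 28 intraflagellar transport genes were at least 10 times higher, and the median ratio over the list was 3.95, against 87.8 for dynein arms. Dync2h1, the motor for return transport, averaged 3.64 ± 0.804, a ratio of 5.28, while Ttc21a, a paralogue of the transport subunit Ttc21b, had a ratio of 269.5. Tubb4b, a tubulin of cilia, averaged 4.33 ± 2.36, with a ratio of 17.7, and Agbl4, which trims tubulin side chains, 17.2 ± 1.67, with a ratio of 7.06.

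Regulators of multiciliation differed in level. Foxj1, the master regulator of motile cilia, averaged 1.54 ± 0.571 against 0.0113 in other nuclei and was above 0 in 64 of 115 nuclei. Rfx2 averaged 1.51 ± 0.314 and Trp73, which acts upstream of Foxj1, 0.615 ± 0.196, with ratios of 35.9 and 91.9. Rfx3 was broad: it averaged 6.64 ± 0.887 in ependymal nuclei, 2.78 in astrocyte nuclei and 9.21 in choroid plexus nuclei. Mcidas and Ccno, which act while basal bodies are being made, were each above 0 in 1 nucleus only. Deup1, of the deuterosome on which basal bodies are amplified, was above 0 in 37 nuclei and averaged 0.413 ± 0.225, against 0.00736 in other nuclei.

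Choroid plexus nuclei, the nearest ciliated population in the tissue, carried some of this programme at a different balance. They were taken as nuclei with Ttr of 20 or more and at least 2 of 6 further choroid markers, which gave 245 nuclei, and means are over the 3 libraries with at least 50 of them. Spag16 averaged 11.9 there and Gmnc, an inducer of multiciliation, 10.4, against 15.9 and 0.516 ± 0.224 in ependymal nuclei. Dnah6, Dnah9 and Dnah11 averaged 1.94, 1.74 and 1.43 in choroid plexus nuclei. Dnah12, Dnah5 and Spag17 averaged 0.0372, 0.00929 and 0.0596 there, against 0.0236, 0.0317 and 0.0128 in all other nuclei. The summed dynein arm genes came to 82.0 ± 12.97 in ependymal nuclei, 13.4 in choroid plexus nuclei and 1.01 ± 0.131 in astrocyte nuclei. Without Dnah12, which the rule used, the ependymal sum was 63.7 ± 10.5. These populations were separated by Ttr and by the rule genes, so the differences are descriptions.

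The summed value of 12 astrocyte markers was 20.7 ± 2.84 (SD, n = 6 libraries) in ependymal nuclei, 125.6 ± 3.43 in astrocyte nuclei and 27.2 ± 1.26 in all other nuclei, and 7 of the 12 were lower in ependymal than in other nuclei. The sum of 29 surface, junction and water transport genes was 28.3 ± 2.0 in ependymal nuclei, 44.8 in astrocyte, 21.9 in choroid plexus and 32.3 in all other nuclei. Astrocyte nuclei (5427, taken by Slc1a3, Gja1, Aqp4 and Slc4a4 summing to 6 or more and a sum of the 3 rule genes of at most 1, within the same exclusions) had Slc1a2, the main glutamate transporter of astrocytes, at 38.7 and Gpc5 at 40.8, against 5.17 ± 1.59 and 0.54 ± 0.334 in ependymal nuclei. Aqp4, the water channel, averaged 3.42 ± 0.918 in ependymal and 1.41 in astrocyte nuclei, and Gja1, the connexin of gap junctions, 2.74 ± 0.804 and 2.06; both were used to choose the astrocyte nuclei. Nnat averaged 18.5 ± 3.55 against 1.29, Rarres2, which codes for chemerin, 6.16 ± 2.33 against 0.0789, and Vim, the intermediate filament vimentin, 1.95 ± 0.901 against 0.0667. Cd24a, a surface glycoprotein of ependymal cells and neuroblasts, averaged 0.915 ± 0.493 against 0.0112, while the neuroblast gene Dcx averaged 0.0927.

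Among planar cell polarity genes, Celsr1 was the Celsr paralogue with the highest share of ependymal nuclei above 0. Celsr1 (chr15:85898929-86033777) was above 0 in 61 of 115 nuclei and averaged 1.0 ± 0.101 (SD, n = 6 libraries), 39.5 times its level in other nuclei. Celsr2 (chr3:108390851-108415552) was above 0 in 20 nuclei and averaged 0.139 ± 0.137, against 0.22 in other nuclei. Celsr3 (chr9:108826320-108852969), the gene altered in the mutant, was above 0 in 2 nuclei, both in heterozygous replicate 2 at a value of 1. Over all nuclei Celsr3 averaged 0.0747, 0.1 and 0.108 in wild type and 0.0617, 0.0692 and 0.0643 in Celsr3 heterozygous libraries, 0.691 times as high in heterozygous libraries, with no overlap (2-sided exact permutation p = 0.1, the smallest possible for 3 against 3). Vangl1, a membrane partner of the pathway, averaged 1.16 ± 0.399 and Fzd3, a receptor, 2.22 ± 0.463, with ratios of 15.4 and 4.64 to other nuclei. Vangl2 averaged 0.172 ± 0.0905. Prickle2 was abundant in both, at 5.09 ± 0.958 and 3.62.

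Ependymal nuclei were not uniform, and their values differed with the number of genes detected. Ordered by that number, the lowest tertile (39 nuclei, 1799 to 2395 genes) had a mean axonemal sum of 155, the middle (38 nuclei, 2396 to 3438 genes) 208 and the highest (38 nuclei, 3497 to 5263 genes) 418. Foxj1 averaged 0.513, 0.842 and 2.97 over the tertiles and Vim 0.333, 0.763 and 4.76. Medium spiny neuron and oligodendrocyte markers ran the other way: the sum of 12 medium spiny neuron markers averaged 13.6, 9.63 and 4.21, and that of 8 oligodendrocyte markers 18.6, 13.5 and 4.21. Spearman's rho with genes detected was 0.745 for the axonemal sum, -0.733 for the neuron markers and -0.696 for the oligodendrocyte markers over 115 nuclei, which share libraries and depth. The axonemal sum holds Dnah12, Spag17 and Cfap43, by which the nuclei were chosen. The neuron sum holds Rgs9 and Pde10a and the oligodendrocyte sum Mog and Mag, which the rule limited. Summed markers of other populations had positive values of rho with genes detected, 0.473 for neuroblasts, 0.449 for tanycytes, 0.365 for vascular cells and fibroblasts, 0.308 for choroid plexus, 0.258 for astrocytes, 0.17 for microglia and 0.0489 for glutamatergic neurons, or negative ones, -0.175 for GABAergic interneurons and -0.16 for oligodendrocyte precursors. Phactr1, a neuronal gene, averaged 3.66 ± 1.11 in ependymal nuclei, 6.72 in astrocyte nuclei and 4.88 in choroid plexus nuclei, against 27.8 in all other nuclei. The part of RNA from other cells in these values was not tested.

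**Figure D2:**
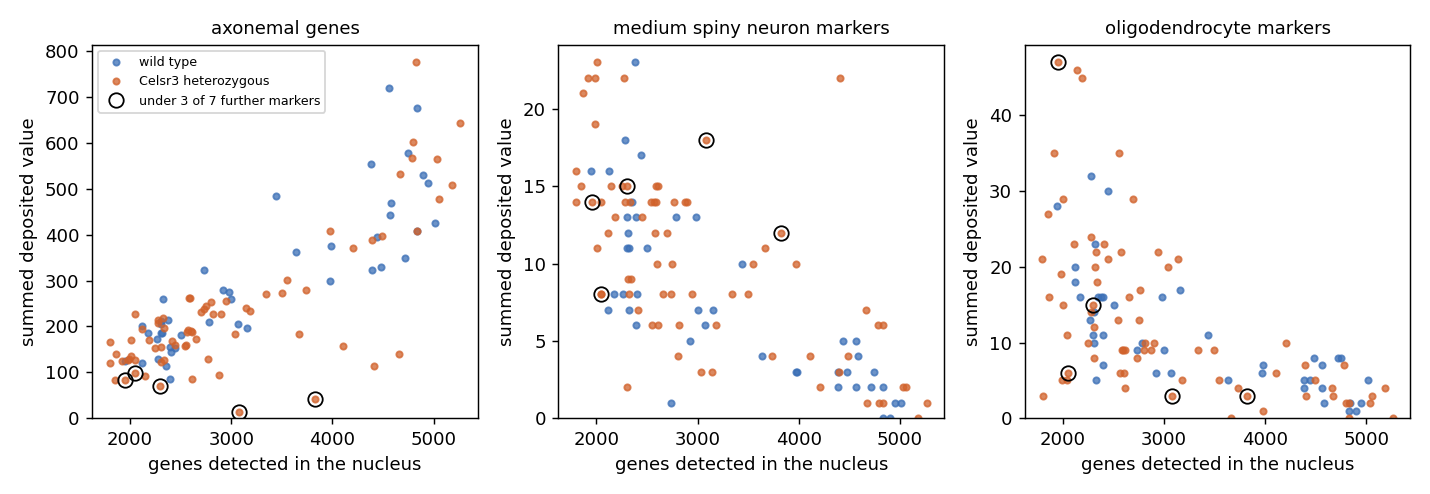
Each point is 1 of the 115 ependymal nuclei, placed by genes detected (x) and by the summed deposited value (y) of axonemal genes, medium spiny neuron markers or oligodendrocyte markers, coloured by genotype, with the 5 nuclei having under 3 of 7 further markers ringed. Nuclei with more genes detected have higher axonemal sums (rho 0.745) and lower sums of both other lists (rho -0.733 and -0.696). Each sum holds genes that the rule used.

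Without adjustment for depth, the genes of highest variance relative to their mean were Trpm3, Malat1, Pcdh9, Dbi, Ifitm3, Apoe, Meg3, Lingo2, Lrrc4c and Lsamp, the last with a rho of -0.523 with genes detected. Trpm3, a calcium-permeable channel with its highest mean in choroid plexus nuclei (146), reached 126 in a single nucleus of heterozygous replicate 1. That nucleus had a Ttr of 0, a Tmem212 of 9 and a marker sum of 20, and without it the Trpm3 mean of its library was 2.11 instead of 14.5. Dbi, a carrier of acyl-CoA, averaged 10.8 ± 6.83 against 0.678 in other nuclei, and Ifitm3, an antiviral membrane protein, 1.02 ± 0.852 and was above 0 in 36.5% of nuclei.

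The first question of the genotype comparison was whether ependymal nuclei were as frequent in both groups. They made up 0.31%, 0.101% and 0.136% of wild-type nuclei, by library, which is 24, 8 and 11 nuclei, and 0.127%, 0.407% and 0.316% of heterozygous nuclei, which is 10, 34 and 28. The groups overlapped, and within each genotype 1 library stood apart from the other 2, wild-type replicate 1 above and heterozygous replicate 1 below. Exact (Clopper-Pearson) 95% intervals, which cover counting error only, ran from 0.199% to 0.461% for the first wild-type library and from 0.0608% to 0.233% for the first heterozygous one. The former overlapped those of wild-type replicates 2 (0.0438% to 0.2%, barely) and 3 (0.068% to 0.243%). The latter overlapped that of heterozygous replicate 3 (0.21% to 0.456%) but not that of replicate 2 (0.282% to 0.568%). Wild-type libraries averaged 0.183% ± 0.112 (SD, n = 3) and heterozygous ones 0.283% ± 0.143 (SD, n = 3), a ratio of 1.55 and a difference of 0.1 percentage points (2-sided exact permutation p = 0.4; smallest possible 0.1). Without the 5 nuclei of few ependymal markers the difference was 0.0806 percentage points (2-sided exact permutation p = 0.5). Leaving out heterozygous replicate 2 or 1 gave 0.0385 or 0.178, leaving out wild-type replicate 1 or 2 gave 0.164 or 0.0597, and stricter exclusions of other cell types gave 0.00406. Choroid plexus nuclei numbered 66, 50 and 1 in wild-type and 1, 0 and 127 in heterozygous libraries and did not follow the ependymal share: heterozygous replicate 2 had the highest ependymal share and no choroid plexus nucleus.

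**Figure D3:**
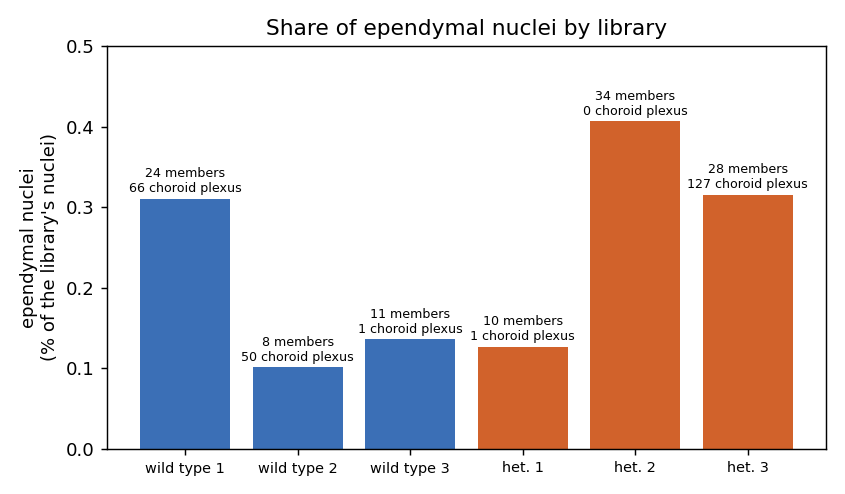
Share of each library's nuclei that were ependymal (bars, percent), wild type in blue and Celsr3 heterozygous in orange, with the number of ependymal and of choroid plexus nuclei above each bar. The wild-type bars span 0.101% to 0.31% and the heterozygous bars 0.127% to 0.407%.

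Across genes, no difference between genotypes passed the test in ependymal nuclei. Limma, fitted on 2948 genes whose summed value averaged at least 10 per library, called 0 (0.0%) at an adjusted p under 0.05, and the smallest adjusted p was 0.304. An unadjusted p under 0.05 was reached by 184 genes (6.24%), of which 104 (3.53% of those tested) had higher and 80 (2.71%) lower means in heterozygous nuclei. The share of such genes that were higher, 56.5%, moved with the settings: it was 69.0% after scaling by size factors, 50.7% without the 5 nuclei of few ependymal markers, 50% without heterozygous replicate 2 and 44.0% without heterozygous replicate 3, 42.9% with a marker sum of at least 4 and 41.9% in nuclei with at least 2500 genes. In simulated data of this size, 82.5% of 200 genes changed 4-fold were recovered. The simulation held no extra spread between nuclei of a library, whereas here single nuclei carry some library means. The figure therefore does not give the power in these data. Genes whose groups did not overlap numbered 329 (11.2%), with the heterozygous group above in 132 (4.48%) and below in 197 (6.68%). The median log2 difference over all genes was -0.05.

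The 10 genes of smallest p all had higher means in heterozygous nuclei, and each had a lower mean in ependymal nuclei than in astrocyte nuclei and in all other nuclei. Rgs20, Ephb1, Aff3 and Nrcam passed the filter only through their heterozygous libraries, so for these genes the filter itself favoured the higher direction. Rgs20, a regulator of G-protein signalling (chr1:4909576-5070285, minus strand), was read at 0.417, 0.75 and 0.727 in wild-type and at 1.9, 2.0 and 2.36 in heterozygous libraries. Every heterozygous library lay above every wild-type one, but 1 nucleus at 12 carries heterozygous replicate 1, whose mean without it was 0.778. Wild-type replicate 2, at 0.75, had a mean of 0.571 without its own highest nucleus. The log2 difference, on the log2(value + 0.1) scale used for all of them, was 1.61 ± 0.32 (SE; limma adjusted p = 0.304). Ephb1, below, overlaps 9630041A04Rik and Rgs20 overlaps Gm16041 and Atp6v1h on the opposite strand, and whether counting used the strand is not given in the sources used here. Rgs20 averaged 6.89 in astrocyte nuclei, and without the 5 nuclei of few ependymal markers its log2 difference was 1.34 (adjusted p = 0.905).

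Ephb1, a receptor for ephrin-B ligands (chr9:101922128-102354693, minus strand), was read at 0.167, 0.125 and 0.273 in wild-type libraries and at 1.1, 0.971 and 0.821 in heterozygous libraries. The groups did not overlap, but the values rest on few nuclei: 3, 1 and 2 above 0 in wild type and 2, 13 and 10 in heterozygous libraries, and a single nucleus at 9 carries heterozygous replicate 1, whose mean without it was 0.222, below wild-type replicate 3. The log2 difference was 1.91 ± 0.51 (SE; limma adjusted p = 0.605). Nr3c2, the mineralocorticoid receptor, was read at 1.04, 0.125 and 0.364 against 2.0, 1.74 and 1.18. These groups did not overlap, by a margin of less than the spread within either (1.79 ± 0.47, SE; limma adjusted p = 0.605), and heterozygous replicate 3 had a mean of 0.815 without its highest nucleus, at 11, which is below wild-type replicate 1. Lsamp, a neural cell adhesion protein, was read at 2.96, 6.25 and 4.09 against 7.9, 11.3 and 10.6. The groups did not overlap (1.19 ± 0.27, SE; limma adjusted p = 0.525), although heterozygous replicate 1 had a mean of 5.11 without its highest nucleus, at 33, which is below wild-type replicate 2. Without the 5 nuclei of few ependymal markers the log2 differences were 1.77 for Ephb1, 1.77 for Nr3c2 and 1.03 for Lsamp (limma adjusted p = 0.905 for each). The other 6 were Cadm2, Slc35f1, Mdga2, Aff3, Nrcam and Ank2, with log2 differences of 0.89 to 1.59 and adjusted p from 0.605 to 0.76.

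**Figure D4:**
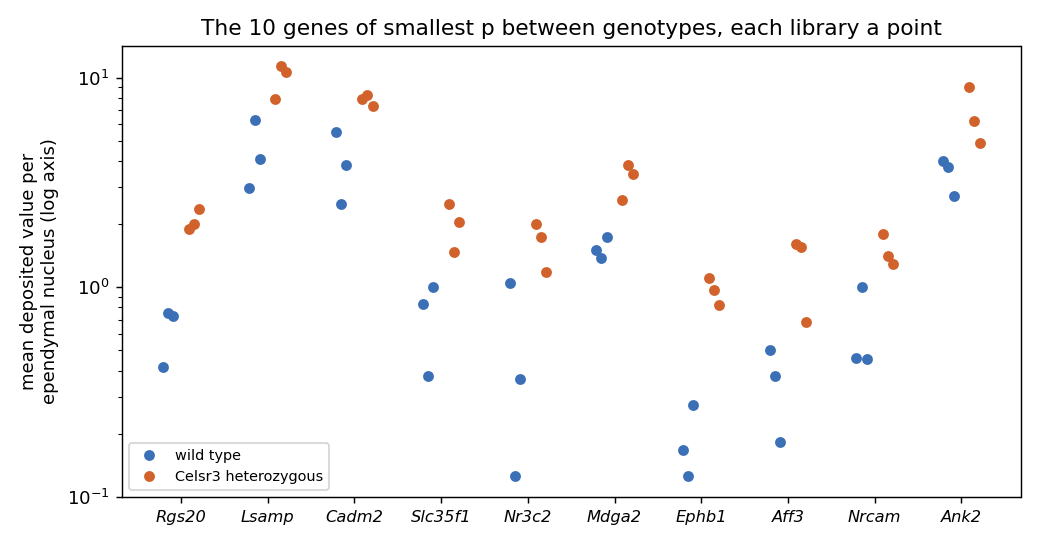
Mean deposited value per ependymal nucleus (log axis) in each library for the 10 genes of smallest p between genotypes, wild type in blue and Celsr3 heterozygous in orange. For all 10 genes the 3 orange points lie above the 3 blue points, from 1.9 to 2.36 against 0.417 to 0.75 for Rgs20, and none passed the adjusted threshold. Rgs20, Ephb1, Aff3 and Nrcam passed the filter only through the heterozygous libraries.

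Whether the genotype difference itself differed between ependymal and astrocyte nuclei was tested in a single model. It did for 2 of 2814 genes (0.0711%). For Ephb1 the log2 difference was larger in ependymal nuclei by 1.99 ± 0.29 (SE; limma adjusted p = 0.0304), the difference in astrocyte nuclei being -0.08. For Rgs20 it was larger by 1.68 ± 0.27 (limma adjusted p = 0.0412), against -0.07 in astrocyte nuclei. Both SEs are smaller than those of the ependymal differences alone (0.51 for Ephb1, 0.32 for Rgs20). The model shared variance, unweighted, between means of 8 to 34 ependymal nuclei and of 791 to 1015 astrocyte nuclei, so the error may be understated. Both genes passed the filter in ependymal nuclei only through their heterozygous libraries. In astrocyte nuclei Rgs20 was read at 6.43, 7.7 and 7.07 in wild-type and 7.15, 6.04 and 6.97 in heterozygous libraries, with overlap. Leaving out any 1 library left 0 or 1 of these calls, as given in the closing part. Without heterozygous replicate 2, Ephb1 fell below the filter and was not tested. Neither call was made without the 5 nuclei of few ependymal markers: 0 genes passed, and the excess was 1.84 for Ephb1 (limma adjusted p = 0.101) and 1.41 for Rgs20 (limma adjusted p = 0.767).

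Axonemal genes as a class had lower means in heterozygous nuclei, gene by gene within the error. Of 84 tested, 79 had a negative log2 difference and 5 a positive one, with a median of -0.32, against 54.6% negative and a median of -0.05 over all 2948 genes. Groups did not overlap for 20, all lower, against 6.68% of all genes that did not overlap in that direction. The sums of the axonemal lists each rose with genes detected (rho 0.689 to 0.756). The genes are therefore not independent, and the counts are not so many separate observations. No axonemal gene was called. An unadjusted p below 0.05 was reached by 3 (3.57%), among them Dnali1 and Iqcd, against 6.24% of all genes and 2.71% in the lower direction. These counts cover only genes found under their listed symbols, and 4 dynein arm symbols were not in the table. Dnaic2, a dynein chain gene outside the lists, also had a lower mean without overlap (-0.93 ± 0.35, SE; limma unadjusted p = 0.0157, adjusted p = 0.76). Dnah6 was read at 8.54, 9.0 and 10.2 in wild-type and at 7.5, 5.65 and 7.75 in heterozygous libraries, without overlap (-0.41 ± 0.22, SE; limma adjusted p = 0.814). Without Dnah12, Spag17 and Cfap43, which the rule used, 76 of 81 were lower with a median of -0.33. The summed value of the 106 axonemal genes was 312, 296 and 287 per nucleus in wild-type libraries and 280, 203 and 254 in heterozygous libraries. Heterozygous replicate 2 was lowest, and its replicate 1 lay just under the wild-type range. Without the 3 rule genes the wild-type sum was 266 ± 9.35 and the heterozygous sum 218 ± 35.4 (SD, n = 3 libraries; 2-sided exact permutation p = 0.1, the smallest possible).

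The axonemal sum moves with depth, so its values by depth are given beside it. Median genes detected per ependymal nucleus were 3036, 2712.5 and 2782 in wild-type and 2702, 2589.5 and 2750 in heterozygous libraries (2-sided exact permutation p = 0.2). Within tertiles of genes detected, the axonemal sum averaged 169 ± 8.21 against 153 ± 14.9 (wild type against heterozygous, SD, n = 3 libraries) in the lowest, 234 ± 30.5 against 189 ± 14.1 in the middle and 471 ± 27.6 against 396 ± 40.9 in the highest, and the groups overlapped in the lowest and highest. Some of these library values rest on 2 nuclei. They are wild-type replicate 2 and heterozygous replicate 1 in the lowest, wild-type replicate 3 in the middle and wild-type replicate 2 in the highest. In nuclei with at least 2500 genes detected, a set chosen after seeing the data (26 wild-type, of which 4 in replicate 2, and 45 heterozygous), the sum was 402 ± 30.1 against 290.0 ± 34.1 (SD, n = 3 libraries), without overlap. The set did not balance depth: 17 of its 26 wild-type nuclei were in the highest tertile, against 21 of its 45 heterozygous nuclei. In it 78 of 78 axonemal genes were lower with a median of -0.48, and 59.9% of all genes were lower with a median of -0.13. An unadjusted p under 0.05 was reached by 19 of the 78, against 198 of all 1868 genes (10.6%, in either direction). No axonemal gene was called by limma. Without the 5 nuclei of few ependymal markers, 73 of 83 axonemal genes were lower with a median of -0.27, and without heterozygous replicate 2, 64 of 81 with a median of -0.19. The markers behind the first of these include the axonemal genes Hydin, Cfap54 and Dnah6, and all 5 nuclei are heterozygous. Leaving them out thus selects partly on the axonemal values themselves. Among nuclei that met the strictest exclusions (22 nuclei, with 7, 1 and 2 in wild-type and 2, 3 and 7 in heterozygous libraries), the direction turned: 12 of 51 were lower and the median was 0.13, against 37.9% lower and a median of 0.10 over all genes. The part of depth and of other cells' RNA in this difference was not tested.

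**Figure D5:**
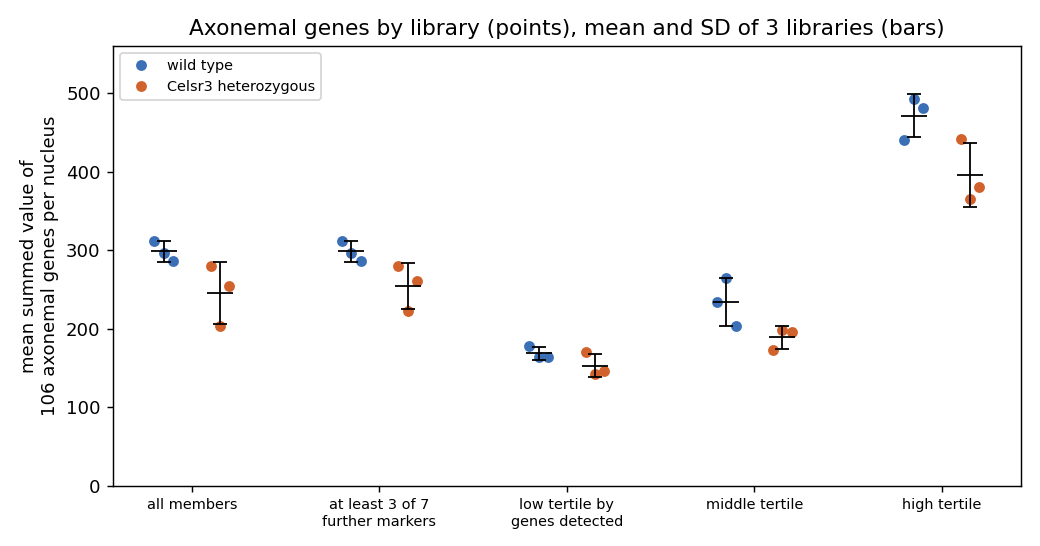
Mean summed deposited value of 106 axonemal genes per ependymal nucleus in each library (points), with mean and SD of the 3 libraries of a genotype, for all nuclei, for the 110 with at least 3 of 7 further markers, and within tertiles of genes detected. Heterozygous libraries lie between 203 and 280 and wild-type libraries between 287 and 312 over all nuclei, and the groups overlap in the low and high tertiles. The 7 markers include the axonemal genes Hydin, Cfap54 and Dnah6, and tertile values rest on as few as 2 nuclei in a library. The 106 genes include Dnah12, Spag17 and Cfap43, which the rule used.

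The other gene lists with at least 3 genes tested are given by their counts, beside a median of -0.05 over all genes. Of 19 intraflagellar transport genes tested, 13 were lower and 6 higher (median -0.21), and Ift80 and Cluap1 had lower means at an unadjusted p under 0.05 (2 of 19, against 2.71% of all genes in that direction). Of 12 genes of basal bodies and tubulin modification, 8 were lower (median -0.21), and Ttll3, which adds glycine to tubulin, was the one with an unadjusted p under 0.05. Of 5 medium spiny neuron markers tested, 4 were higher (median 0.26), and of 3 oligodendrocyte markers 3 were lower (median -0.05). Among the 4 is Pde10a (log2 difference 0.35), which the rule itself limited. Of 17 surface, junction and water transport genes 8 were higher and 9 lower (median -0.08), and of 22 glial and ependymal lineage genes 10 were higher and 12 lower (median -0.04). Multiciliation regulators split into 4 higher and 4 lower of 8 (median -0.07): Foxj1 was read at 1.83, 2.38 and 1.27 against 1.2, 0.765 and 1.79, with overlap. Of 6 planar cell polarity genes tested, 2 were higher and 4 lower. Celsr1 was read at 1.12, 1.0 and 1.0 in wild-type libraries and at 1.1, 0.882 and 0.893 in heterozygous libraries, with overlap (log2 difference -0.11 ± 0.31, SE; limma adjusted p = 0.966). Vangl1 was read at 1.67, 1.12 and 1.36 against 1.4, 0.794 and 0.607, with overlap (-0.58 ± 0.35, SE; limma adjusted p = 0.828). Mid1, an X-linked ubiquitin ligase named because it stood out in earlier results of these data, was read at 0.458, 0.5 and 0.182 against 0.6, 0.765 and 0.75, without overlap (0.82 ± 0.48, SE; limma adjusted p = 0.814). Astrocyte markers were 5 higher and 4 lower of 9, and their sum ranged from 17.1 to 22.9 in wild-type and 17.2 to 23.1 in heterozygous libraries. Ttr was highest in the libraries with most choroid plexus nuclei. It averaged 2.79, 1.25 and 0.364 in ependymal nuclei of wild-type libraries and 0, 0.0294 and 1.75 in heterozygous ones, and the astrocyte nuclei of the same libraries had 1.75, 1.7, 0.197, 0.089, 0.0792 and 2.58.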

How the data were processed

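The authors' deposited table holds, per gene and nucleus, whole-number values that behave as depth-corrected scores rather than raw counts: totals per nucleus ran only from 4523 to 10638. Per the submitters' processing notes, Cell Ranger, Seurat 4.1 and the mm10 (GRCm38) build were used; their settings are not given in the sources used here. Ependymal nuclei and gene lists were chosen with earlier results of these data known. Values were averaged per nucleus and library and tested as log2(mean + 0.1) with limma 3.58.1 (R 4.3.3, trended empirical Bayes, Benjamini-Hochberg adjustment) over genes whose summed value averaged at least 10 per library. The comparison with astrocyte nuclei added an interaction with library as a block. Shares used exact permutation. Named genes are those of the rule, the 20 leading by ratio, the 5 highest of each list, all polarity and multiciliation genes, Mid1, Dnaic2, the 10 of smallest p and the 10 most variable. Such values give no exact counting error. Doublets were not called, and the exclusions cover only Ttr, Rgs9, Pde10a, Slc17a7, Mog and Mag: summed markers in a kept nucleus reached 112 for astrocytes, 47 for oligodendrocytes, 35 for GABAergic interneurons, 34 for oligodendrocyte precursors and 23 for medium spiny neurons. The fit was tested on simulated data. Alternatives varied the pseudocount, filter, scaling, weights, rule and libraries.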

Additional observations from a re-analysis of the deposited data

Results flagged for a closer look

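Ephb1 and Rgs20 were picked out because their genotype difference in ependymal nuclei differed from that in astrocyte nuclei by a test of the difference itself. Both genes passed the filter in ependymal nuclei only through the heterozygous libraries, where they are higher. The error used by the test may be understated, as given above. For Ephb1 the excess was 1.99 (log2; limma adjusted p = 0.0304), and over 7 alternatives it ran from 1.78 to 2.44 with adjusted p from 0.0214 to 0.284. Ephb1 fell below the filter and was not tested without heterozygous replicate 2 or among nuclei with at least 2500 genes. Ependymal means were higher in 3 of 3 heterozygous libraries than in any wild-type library for both genes, but for Ephb1 heterozygous replicate 1 was at 0.222 without its single nucleus at 9, below wild-type replicate 3 at 0.273. For Rgs20 the excess was 1.68 (limma adjusted p = 0.0412), and over 9 alternatives it ran from 1.07 to 1.82 with adjusted p from 0.0481 to 0.767. Rgs20 averaged 7.4 in the 5 ependymal nuclei with few further ependymal markers, all in heterozygous replicates 2 and 3, and 1.27 in the other 110, and without these 5 neither gene was called.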

How the results depend on the processing

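No gene was called between genotypes in ependymal nuclei by 17 of 19 alternatives. Without a filter on low values 5 genes were called, of which Rgs20, Nr3c2, Lsamp and Trpm3 were higher and Ttr lower, and among nuclei with at least 2500 genes (chosen after seeing the data) 6 were called, all higher (Lrp1b, Grm5, Mdga2, Pcdh9, Rbfox1, Lsamp). Ttr was itself limited by the rule, so its call is no independent result. The Trpm3 mean of heterozygous replicate 1 was 14.5, and 2.11 without its highest nucleus. Genes at an unadjusted p under 0.05 numbered 184 of 2948 (6.24%), and 730 of 17777 (4.11%) without a filter, 51 of 724 (7.04%) with a filter of 30, 100 of 2554 (3.92%) without heterozygous replicate 2, 100 of 1827 (5.47%) without nuclei over 1.5 times the median genes, 4 of 398 under stricter exclusions and 198 of 1868 (10.6%) in nuclei with at least 2500 genes. The test against astrocyte nuclei called 0 to 1 genes when 1 library was left out, only Ephb1 without wild-type replicate 3, 2 with a pseudocount of 0.01, and 0 both without the 5 nuclei of few ependymal markers and among nuclei with at least 2500 genes, where the excess of Rgs20 was 1.07 (both chosen after seeing the data). Ephb1 was below the filter, so not tested, in that last set and without heterozygous replicate 2. Lsamp turned to -0.42 under stricter exclusions, and the difference in median total per nucleus, -70.7, turned to 20.8 without wild-type replicate 1 (range -158.0 to 20.8). The share of ependymal nuclei kept its direction under every alternative run, from 0.00406 to 0.178 percentage points, and was 0.207 as a share of nuclei outside medium spiny neurons, a smaller denominator. The causes were not tested.

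Libraries were not treated as paired by replicate number in the main test. Same-numbered deviations correlated at 0.154, -0.0707 and -0.0672, which at so few nuclei per library cannot exclude a pairing. With a replicate block 0 genes were called, 205 had an unadjusted p under 0.05 (smallest adjusted p 0.0798), and the share differed by 0.1 percentage points (exact sign-flip p = 0.75, smallest possible 0.25). Leaving out libraries with fewer than 20 ependymal nuclei was not run, since 1 wild-type library would remain. With 8 to 34 nuclei per library, genes with few molecules rest on single nuclei.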

Other observations

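Most genes used as markers of choroid plexus (8 of 12), vascular cells and fibroblasts (7 of 10) and neuroblasts (6 of 10) were lower in ependymal nuclei than in all other nuclei. The members named here were chosen after their values were seen and are given with no test. Folr1, a folate receptor used as a choroid plexus marker, averaged 0.604 ± 0.257 (SD, n = 6 libraries) in ependymal nuclei, 1.57 in choroid plexus nuclei, 0.0127 in all other nuclei and 0.00393 in astrocyte nuclei, while Kl averaged 0.0098 against 3.24 in choroid plexus nuclei. Acta2, the smooth muscle actin, averaged 0.348 ± 0.273 and was above 0 in 21.7% of ependymal nuclei, against a mean of 0.0076 in all other nuclei, while the pericyte gene Pdgfrb averaged 0.054 against 0.0935. Cd24a, listed with neuroblast markers, was above 0 in 44.3% of ependymal nuclei.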
